A study of Mus musculus with 12 samples.

Results

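Wild type mouse embryonic stem (ES) cells and ES cells of the line labelled WT+1343KO-a14, called 1343KO here, were compared by RNA-seq at day 0, before differentiation. The comparison takes the 4 day 0 libraries, 2 per line, of 12 libraries that also cover embryoid bodies at days 8 and 16. It is described for the genes off chromosomes 8 and Y, which are 50638 of 54537 genes in the deposited table; 15500 of these were among the 16289 genes with enough signal to test. Both lines were kept on gelatin, without a feeder layer named in the labels, in serum with leukaemia inhibitory factor (LIF), a cytokine that keeps ES cells undifferentiated. Libraries were made from poly(A) RNA with the NEBNext Ultra II kit. The labels explain neither the number in the line's name, nor the prefix WT+, nor the suffix a14. The knockout is represented by this 1 line, so its effects and other differences of the line cannot be told apart. They also do not call the replicates separate cultures, so a p-value here reflects library-to-library spread that may be technical only.

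The study's title names SNORA73 in connection with leaving pluripotency. SNORA73 is a box H/ACA small nucleolar RNA (snoRNA), a class of which most members guide pseudouridylation, whereas this one is known for its part in processing the precursor of ribosomal RNA. In mouse its copies lie in introns of Snhg3, a noncoding host gene. ES cells in serum with LIF are a mixed population: most express the pluripotency factors Pou5f1 and Sox2, and a few turn on Gata6, Gata4, Sox7 and Sox17, the factors of primitive endoderm, the lineage that makes the yolk sac lining and lays down a laminin-rich basement membrane.

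The snoRNA copies at the locus are shown because the title names them and their host gene had the largest fall among named genes. Both are 205 bases long in GENCODE M21 (GRCm38), Snora73a at chr4:132352775-132352979 and Snora73b at chr4:132352322-132352526, and they differ at 7 positions, printed in capitals.
Snora73a: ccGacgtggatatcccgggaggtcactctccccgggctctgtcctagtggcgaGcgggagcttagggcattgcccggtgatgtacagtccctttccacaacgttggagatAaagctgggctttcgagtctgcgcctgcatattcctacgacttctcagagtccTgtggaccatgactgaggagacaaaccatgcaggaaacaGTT
Snora73b: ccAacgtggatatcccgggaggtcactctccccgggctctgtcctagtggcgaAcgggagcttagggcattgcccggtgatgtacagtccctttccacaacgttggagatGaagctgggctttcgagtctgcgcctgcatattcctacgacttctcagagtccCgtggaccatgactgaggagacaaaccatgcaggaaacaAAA
The poly(A) libraries do not measure these RNAs themselves, which lack a poly(A) tail.

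The host gene's transcript was almost absent in 1343KO. Snhg3 (ENSMUSG00000085241, chr4:132348014-132353686) was at 61.1 and 47.0 FPKM in the WT libraries and at 1.57 and 0 in the 1343KO libraries; FPKM counts sequenced fragments scaled to transcript length and library depth. The log2 change was -5.09 ± 0.49 (SE; limma, Benjamini-Hochberg adjusted p = 0.000737). Changes throughout are on the log2(FPKM + 1) scale, 1343KO minus WT, which understates changes of low genes. Gm17300, an unnamed model inside the span of Snhg3 (chr4:132351772-132353382), had 12.5 and 18.3 FPKM in WT and 0.122 and 0.155 in 1343KO (-3.83 ± 0.21, adjusted p = 2.78e-05). Reads can be split between it and Snhg3. Rcc1, the exchange factor for the GTPase Ran, also overlaps Snhg3 on the annotation, with 79.1 and 86.2 FPKM against 49.1 and 43.5. Its call (adjusted p = 0.0198) ended without any 1 day 0 library, at 0.0699 and 0.13 for the WT and 0.0547 and 0.12 for the 1343KO replicates. Of the other named genes within 200 kb none was called: Snhg12, another snoRNA host, had 42.4 and 42.7 FPKM against 45.7 and 37.8, and Trnau1ap, a selenocysteine tRNA-associated protein, 16.3 and 15.2 against 9.56 and 8.56 (adjusted p = 0.148).

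A minority of genes differed between the ES cell lines. In 1343KO 257 genes were called higher (1.66% of those tested) and 218 lower (1.41%) at an adjusted p under 0.05, together 475 (3.06%), and 90 and 85 of them differed by at least 2-fold. With chromosomes 8 and Y the share called was 3.71%. The number rested on single libraries: leaving out WT replicate 1 gave 222, WT replicate 2 gave 153, 1343KO replicate 1 gave 263 and 1343KO replicate 2 gave 178. On the 4 day 0 libraries alone limma called 0 of 15500 genes, with 2190 at an unadjusted p under 0.05. The text therefore leans on the 98 genes (0.632%) called in the fit to all 12 libraries and again under each of 19 other settings, 12 of which left out 1 library; these are termed held. The 19 settings do not include that fit to 4 libraries, a required log2 change of 1, which left 14 calls, or a required mean of 5 FPKM, under which 13 of the 98 would not be tested. Of the held genes 55 were higher (0.355%) and 43 lower (0.277%).

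**Figure D1:**
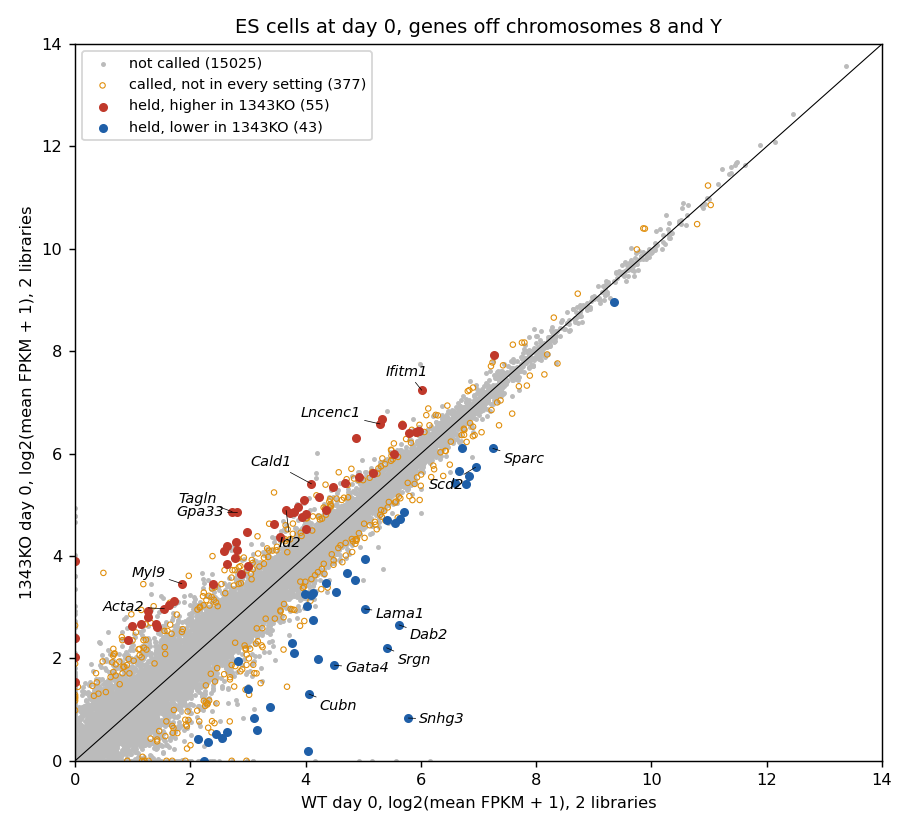
Mean level of each tested gene off chromosomes 8 and Y in WT (x axis) and 1343KO (y axis) ES cells, as log2 of the mean FPKM of 2 libraries plus 1; the line marks equal levels. Among named genes, Snhg3, Srgn, Dab2 and Cubn lie furthest below the line and Tagln and Gpa33 furthest above it; the held points at 0 in WT are unnamed models.

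Depth was comparable between the lines. Estimated depth was 4940000 to 7504000 fragments, 12909 to 13019 genes reached 1 FPKM, and replicates correlated across genes at 0.962 (WT) and 0.961 (1343KO), against 0.948 to 0.957 between the lines; genes are not independent replicates. The mitochondrial share of summed FPKM was 7.66% and 8.12% in WT and 9.17% and 9.04% in 1343KO, and the part of RNA quality in the results was not tested. Chromosome 8, left out here, had 16.0% of its tested genes called, 123 of 125 lower, against 1.99% to 4.44% for the other autosomes and X. Both lines had the ES cell markers: Pou5f1, the factor Oct4, was at 762 and 761 FPKM in WT and 851 and 801 in 1343KO (adjusted p = 0.605). Its partner Sox2 was at 174 and 168 against 188 and 187 (adjusted p = 0.477).

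Transcription factors of primitive endoderm were lower in the 1343KO ES cells, where 1.41% of all tested genes were called lower. Among 10 factors measured, 7 fell and 0 rose, while Hnf4a, Foxa1 and Foxa3 did not pass; the median change was -2.12, beside 0.01 over all tested genes. Gata4 (ENSMUSG00000021944, chr14:63198922-63271692) was at 19.4 and 23.8 FPKM in WT and 3.25 and 2.04 in 1343KO (-2.64 ± 0.18, adjusted p = 0.000108). Gata6, which starts the primitive endoderm programme, was at 18.8 and 16.1 against 1.58 and 4.38 (-2.31 ± 0.31, adjusted p = 0.0052). Sox7 was at 7.86 and 7.37 against 0.545 and 1.02 (-2.29 ± 0.19, adjusted p = 0.00039). The lines did not overlap for any of these, as for 44.1% of all tested genes, and the 1343KO replicates differed from each other by more, in proportion, than the WT replicates did.

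Foxq1, a forkhead factor, was on in WT and off in 1343KO: 7.85 and 7.87 FPKM against 0.630 and 0.422 (-2.54 ± 0.17, adjusted p = 9.35e-05). Sox17 and Foxa2 were called lower but not held. Sox17 was at 12.5 and 11.1 against 0.288 and 3.17, and its call ended without a filter (adjusted p = 0.0576) and without WT replicate 1 (0.1) or 2 (0.103). Foxa2 was at 2.36 and 3.31 against 0.538 and 0.655 and lost its call without WT replicate 2 (0.111) or either 1343KO replicate (0.0701 and 0.0678). Without WT replicate 2 the list had 4 members lower instead of 7. The summed level of the 10 factors was 76.1 and 78.2 FPKM in WT and 8.27 and 15.3 in 1343KO. Fewer cells in an endoderm-like state and less of these RNAs per cell cannot be told apart in bulk RNA.

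The uptake and matrix genes of that lineage were lower as well, and less uniformly. The share of all tested genes called lower was 1.41%. Among 18 genes measured, 11 fell and 1 rose, while Nid1, Nid2, Hspg2, Thbd, Pth1r and Fst did not pass; 8 of the lower ones held and the median was -0.81. Dab2 (ENSMUSG00000022150, chr15:6299788-6440712), the clathrin adaptor of endoderm endocytosis, was at 49.1 and 47.3 FPKM in WT and 4.95 and 5.63 in 1343KO (-2.97 ± 0.12, adjusted p = 9.73e-06). Cubn, a scavenger receptor that works with it, was at 15.9 and 15.4 against 1.43 and 1.51 (-2.75 ± 0.12). Pdgfra, the growth factor receptor used to sort primitive endoderm, was at 9.87 and 8.89 against 1.27 and 0.892 (-2.32 ± 0.15, adjusted p = 8.55e-05). These 3 were lower in 1343KO by several-fold in every library. Srgn, a proteoglycan core protein, was at 41.6 and 41.1 against 3.64 and 3.59 (-3.20 ± 0.30, adjusted p = 0.000647).

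Laminin 111, the laminin of the embryo's first basement membranes, is built from the products of Lama1, Lamb1 and Lamc1, and the chains differed in how far they were lower. Lama1 was at 32.4 and 30.6 FPKM in WT and 7.21 and 6.41 in 1343KO (-2.06 ± 0.11, adjusted p = 1.85e-05). Lamb1 was at 49.3 and 47.7 against 23.8 and 27.2 (-0.90 ± 0.09, adjusted p = 0.00107). Lamc1 was at 85.6 and 93.5 against 50.4 and 57.8 (-0.72 ± 0.11, adjusted p = 0.00804), and its call ended without WT replicate 2 (0.069). Sparc, a matrix glycoprotein that binds collagen, was among the most abundant of the lower genes, at 152 and 150 against 70.2 and 65.3 (-1.15 ± 0.05, adjusted p = 9.73e-06). Col18a1, a basement membrane collagen, went the other way, from 54.6 and 54.6 in WT to 79.7 and 88.3 (0.61 ± 0.08, adjusted p = 0.00538).

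Serpinh1, P4ha1 and Ctsl were lower too. The last is 1 of 3 lower among 20 measured lysosome genes (median -0.03), beside 1.41% lower over all tested genes. Serpinh1 (ENSMUSG00000070436, chr7:99345376-99353239), the collagen chaperone HSP47, was at 112 and 107 FPKM in WT and 41.6 and 41.5 in 1343KO (-1.38 ± 0.07, adjusted p = 1.37e-05). P4ha1, a subunit of prolyl hydroxylase, which stabilises collagen, was at 22.7 and 21.1 against 8.98 and 8.79 (-1.21 ± 0.10, adjusted p = 0.000263). Ctsl, the lysosomal protease cathepsin L, was at 116 and 111 against 46.3 and 46.5 (-1.27 ± 0.06, adjusted p = 9.73e-06). Within a line the replicates of these 3 genes lay close together, and both 1343KO libraries were well under the WT libraries.

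Most genes listed for the secreted products of mature yolk sac endoderm were not called. Over all tested genes 1.41% were called lower. Among 16 listed genes measured, 2 fell, 14 did not pass and 0 rose, with a median of -0.14. The 2 were Cited1, a transcriptional coregulator (4.01 and 3.54 FPKM against 1.57 and 0.627), and Ihh, a hedgehog ligand (1.64 and 1.73 against 0.403 and 0.265); neither held, and neither is a plasma protein. Both calls ended without WT replicate 1 (0.0756 for Cited1 and 0.0998 for Ihh) or WT replicate 2 (0.0632 and 0.14). Among the plasma proteins Afp, alpha-fetoprotein, was at 42.8 and 43.4 against 58.7 and 36.9, where the 1343KO libraries lay on both sides of WT.

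**Figure D2:**
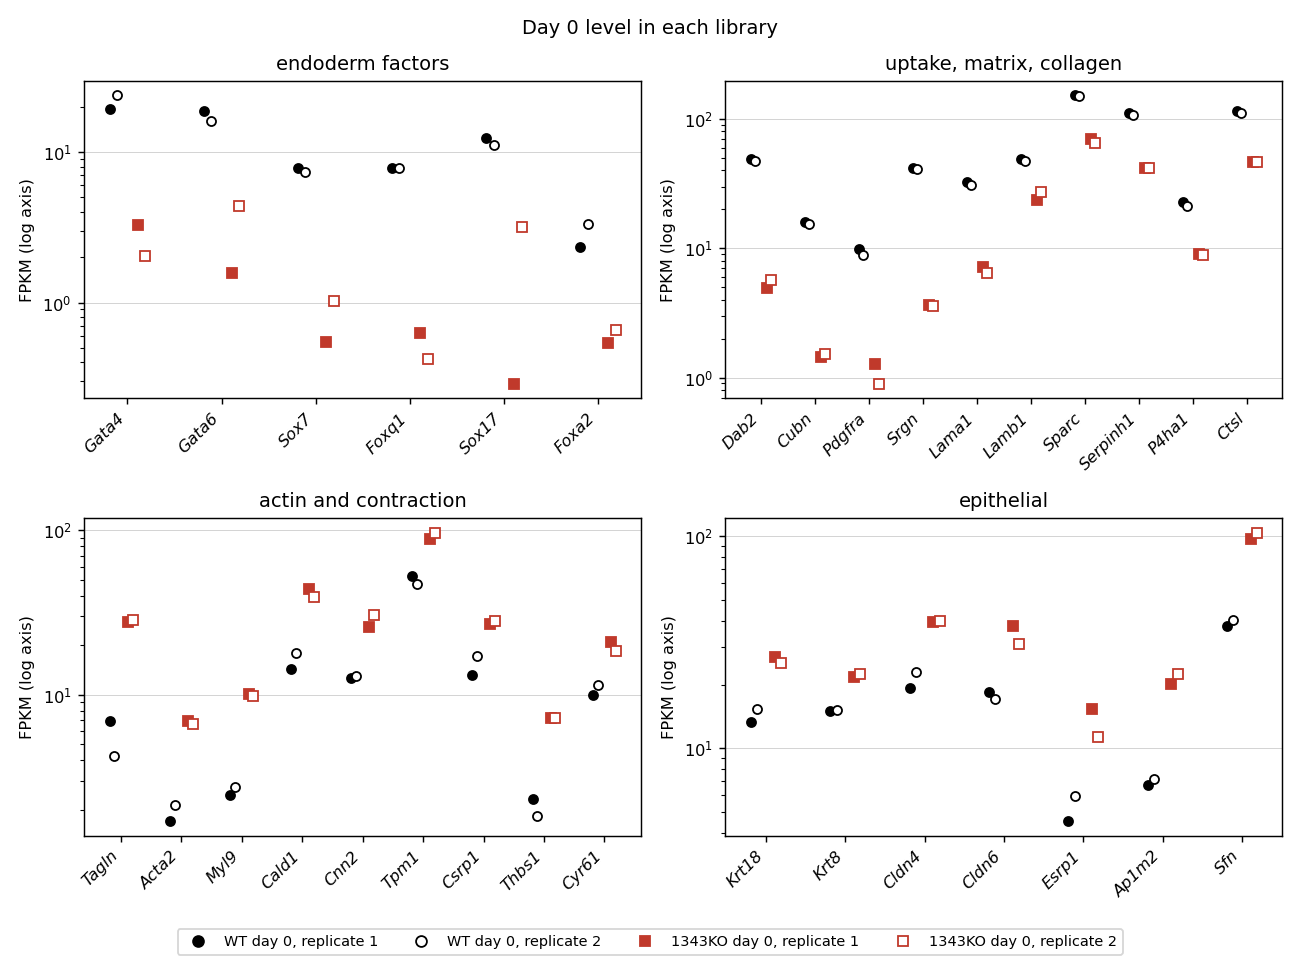
FPKM (log axis) of 32 genes in the 4 day 0 libraries, circles for WT and squares for 1343KO, filled for replicate 1 and open for replicate 2; P4ha1, Ctsl, Cald1, Ap1m2 and Sfn are shown with genes of a similar function from outside the list. WT lies above 1343KO for every gene of the upper panels and below it for every gene of the lower panels. Only genes called in that direction are shown, so the shared direction follows from the choice. Col18a1 and Vim, called the other way, are left out. Sox17 and Foxa2 were called but not held.

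Other lower genes that held included coreceptors, a Hippo pathway protein and a secreted Wnt antagonist. Dkk1, which blocks Wnt coreceptors, was on in WT and off in 1343KO: 5.28 and 5.20 FPKM against 0.576 and 0.360 (-2.09 ± 0.25, adjusted p = 0.00289). Klb, the beta-Klotho coreceptor for endocrine FGFs, was at 3.97 and 3.86 against 0.463 and 0.119 (-1.94). Runx1, a transcription factor best known from blood, was at 5.0 and 3.84 against 0.338 and 0.524 (-1.92 ± 0.23, adjusted p = 0.00289). It was the 1 called member of 13 measured blood and endothelial markers, where 1.41% of all tested genes were called lower. The summed level of these markers was 27.7 and 28.5 against 37.0 and 32.1.

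Flrt3, a cell adhesion protein, was at 5.98 and 7.96 FPKM in WT and 1.71 and 1.56 in 1343KO (-1.59). Amot, angiomotin, a Hippo pathway protein coded on the X chromosome, was at 12.1 and 13.1 against 4.06 and 3.78 (-1.46 ± 0.08, adjusted p = 2.6e-05). Nostrin, a regulator of nitric oxide synthase traffic, Ndufa4l2, a hypoxia-induced mitochondrial protein, and Fam213a, a redox protein, were lower by 1.73, 2.1 and 1.72 on the log2 scale. Hist1h4f, a histone gene with near-identical copies, was listed at 2.07 and 5.35 in WT and at 0 in both 1343KO libraries, and its level is uncertain.

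Lipid desaturases were lower among lipid genes. Among 22 measured genes of cholesterol and fatty acid synthesis 4 fell and 18 did not pass (median -0.29), beside 1.41% of all tested genes lower. The count of 4 became 2 when either WT replicate or 1343KO replicate 2 was left out. The held pair were the stearoyl-CoA desaturases, which make monounsaturated fatty acids. Scd2 (chr19:44293676-44306864) was at 122 and 123 FPKM in WT and 53.7 and 50.7 in 1343KO (-1.21 ± 0.06, adjusted p = 1.37e-05). Scd1 was at 27.5 and 28.7 against 11.3 and 9.70 (-1.34 ± 0.12, adjusted p = 0.000469).

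Genes of the actin cytoskeleton and smooth muscle were higher in the 1343KO ES cells. Over all tested genes 1.66% were called higher and 0.355% held higher. Among 27 genes measured, 12 rose, Vim fell and 14 did not pass, with a median of 0.39; 9 held, all of them higher. The call of Vim, the mesenchymal intermediate filament vimentin (49.0 and 64.5 FPKM against 37.3 and 28.9), ended among others without WT replicate 2 (0.181). Tagln (ENSMUSG00000032085, chr9:45929619-45936058), the actin-binding protein transgelin, was at 6.94 and 4.27 in WT and 27.8 and 28.5 in 1343KO (2.17 ± 0.17, adjusted p = 0.000266). Myl9 (ENSMUSG00000067818), the regulatory light chain of nonmuscle and smooth muscle myosin, was at 2.45 and 2.76 against 10.1 and 9.84 (1.61 ± 0.12, adjusted p = 0.000211). Acta2 (ENSMUSG00000035783), smooth muscle alpha-actin, was at 1.71 and 2.14 against 6.97 and 6.70 (1.42 ± 0.10, adjusted p = 0.00014). All 3 started low in WT. Both 1343KO libraries lay above both WT libraries, which was a condition for a place among the largest held rises.

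The rest of the held members code for proteins that bind actin filaments or are released by spreading cells. Cnn2, calponin 2, was at 12.7 and 13.1 FPKM against 25.8 and 30.6 (1.07 ± 0.10, adjusted p = 0.000737). Tpm1, tropomyosin 1, the most abundant of the 9, was at 52.6 and 46.9 against 89.0 and 96.6 (0.89 ± 0.07, adjusted p = 0.000266). Csrp1, a LIM protein of the cytoskeleton, was at 13.2 and 17.1 against 26.8 and 27.9 (0.82). Of the matricellular proteins, Thbs1, thrombospondin 1, was at 2.34 and 1.84 against 7.23 and 7.23 (1.42 ± 0.11, adjusted p = 0.000216), and Cyr61, a target of the coactivator YAP, at 9.92 and 11.6 against 20.9 and 18.4 (0.82 ± 0.09, adjusted p = 0.00236). Anxa1, annexin A1, which binds membranes and actin, was at 1.29 and 2.02 against 4.82 and 5.97 (1.28 ± 0.18). Cald1, caldesmon, not on the list but among the 20 largest held rises, was at 14.3 and 18.0 against 43.8 and 39.1 (1.31 ± 0.11, adjusted p = 0.000284).

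Many contractile genes carry in their promoters a CArG box, the 10-base element bound by serum response factor, so the promoter windows are shown for the called members that had one. RefSeq (GRCm38.p6) gave a window of 250 bases before to 50 after the start for 8 of the 12 called higher, and 3 of the 8 (37.5%) held a CArG box. Of 21 tested list genes with a window 4 (19%) held one, and of all 27025 genes with a window 488 (1.81%). The box reads the same in form on both strands, so 1 search covers both. The windows run 5′ to 3′ on the plus strand, at chr2:156775214-156775513 for Myl9, chr10:79988350-79988649 for Cnn2 and chr14:20929148-20929447 for Vcl, with the box in capitals; it starts 161, 56 and 227 bases before the start site.
Myl9: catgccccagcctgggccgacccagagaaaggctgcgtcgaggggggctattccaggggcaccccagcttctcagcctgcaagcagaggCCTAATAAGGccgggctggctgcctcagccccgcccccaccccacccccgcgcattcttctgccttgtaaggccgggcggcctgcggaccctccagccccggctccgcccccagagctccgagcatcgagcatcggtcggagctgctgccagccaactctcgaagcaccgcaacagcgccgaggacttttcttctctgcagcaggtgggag
Cnn2: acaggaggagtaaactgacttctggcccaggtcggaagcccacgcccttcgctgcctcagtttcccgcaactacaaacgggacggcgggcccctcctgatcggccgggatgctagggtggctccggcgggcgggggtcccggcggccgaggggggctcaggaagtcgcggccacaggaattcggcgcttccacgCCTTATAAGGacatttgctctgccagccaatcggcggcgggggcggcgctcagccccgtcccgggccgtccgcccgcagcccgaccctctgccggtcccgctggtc
Vcl: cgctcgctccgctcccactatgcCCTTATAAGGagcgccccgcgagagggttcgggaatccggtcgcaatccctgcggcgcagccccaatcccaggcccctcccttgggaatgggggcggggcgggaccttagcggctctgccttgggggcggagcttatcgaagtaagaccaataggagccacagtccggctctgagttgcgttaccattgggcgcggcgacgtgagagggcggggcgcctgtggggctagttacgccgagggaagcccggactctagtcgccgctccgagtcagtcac
A box is a match of letters and not a bound site. Myl9 and Cnn2 held, whereas Vcl, the adhesion protein vinculin, was at 12.1 and 11.5 FPKM against 16.4 and 15.3 (0.39 ± 0.09, adjusted p = 0.0412) and lost its call in several settings, among them without WT replicate 1 (0.112) or 2 (0.2).

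Epithelial genes were higher in the same cells, where 1.66% of all tested genes were called higher. Among 20 genes measured, 9 rose, 11 did not pass and 0 fell, with a median of 0.52; 5 held, and 5 were called when WT replicate 2 was left out. The simple epithelial keratins Krt18 (13.4 and 15.3 FPKM against 27.1 and 25.3; 0.83 ± 0.09, adjusted p = 0.00174) and Krt8 (15.0 and 15.2 against 21.7 and 22.4; 0.52 ± 0.07, adjusted p = 0.00351), which pair into filaments, both rose. The tight junction genes Cldn6 (18.5 and 17.0 against 37.6 and 31.0; 0.91) and Cldn4 (19.3 and 23 against 39.5 and 40.0; 0.89) rose to a similar extent. Esrp1, a splicing factor of epithelial cells, was at 4.53 and 5.93 against 15.3 and 11.4 (1.20 ± 0.16, adjusted p = 0.00521). Cdh1, E-cadherin, Tjp1 and Ocln, core junction genes, did not pass, with changes of 0.04, -0.08 and -0.03.

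Outside the list, 2 more genes of epithelia were among the largest held rises. Ap1m2, the epithelial subunit of a clathrin adaptor that sorts basolateral proteins, was at 6.71 and 7.18 FPKM against 20.1 and 22.3 (1.48 ± 0.14, adjusted p = 0.00067). Sfn, 14-3-3 sigma, was at 38.0 and 40.5 against 97.2 and 104 (1.34 ± 0.12, adjusted p = 0.00044). Gpa33, an intestinal surface antigen, was at 5.99 and 6.10 against 28.7 and 27.0 (2.04 ± 0.13, adjusted p = 8.55e-05). Both libraries of 1343KO exceeded both of WT for all 3 genes, but the largest held rises were picked among genes without overlap.

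**Figure D3:**
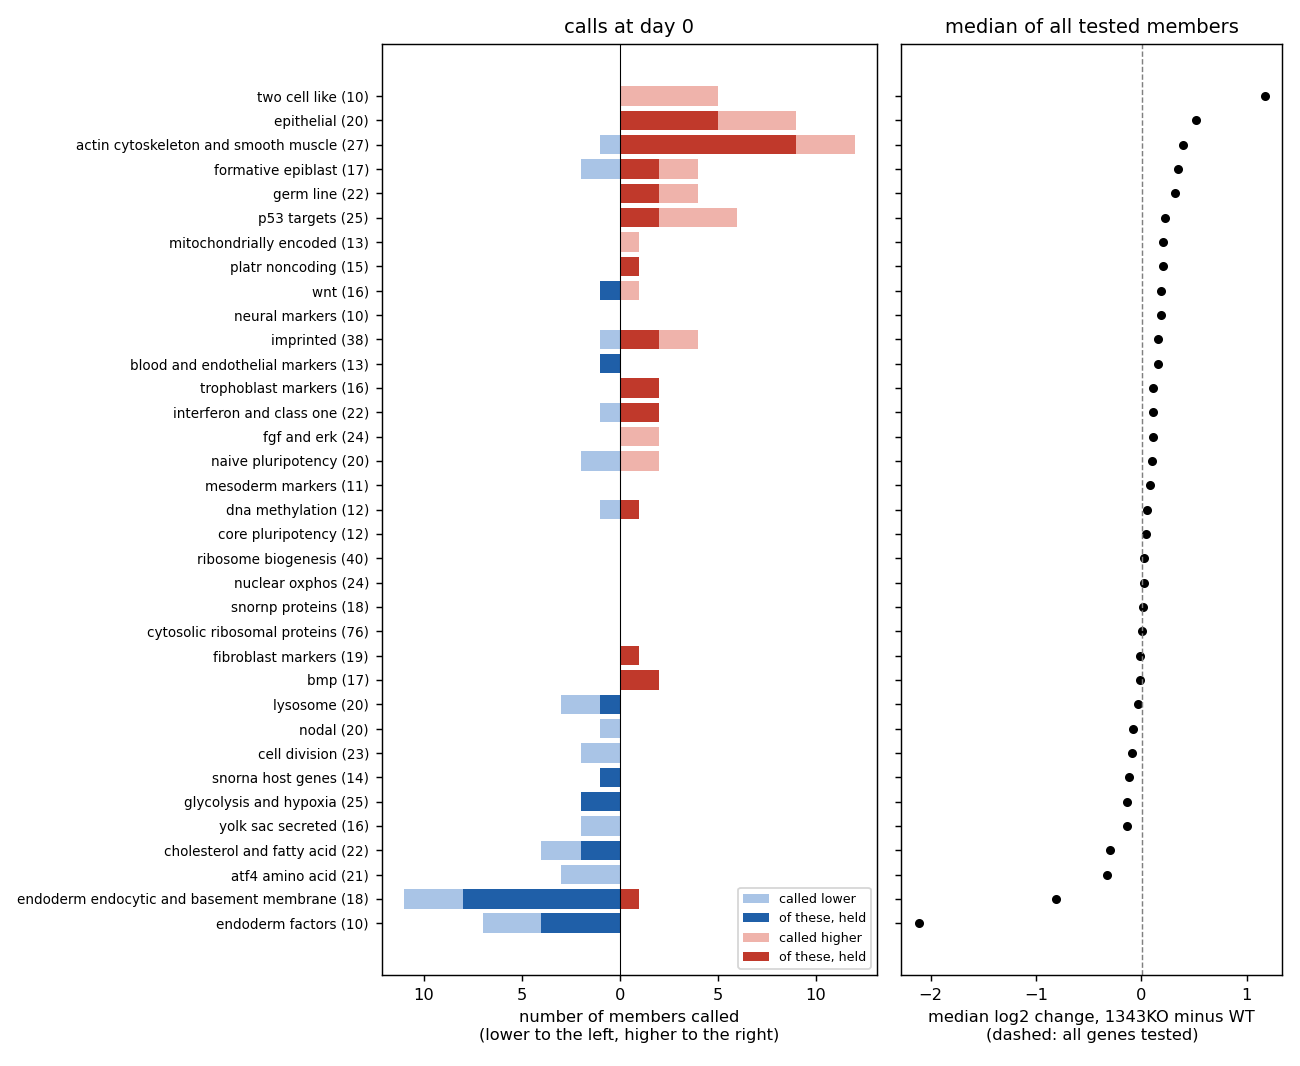
Left, members of each gene list called lower (to the left) or higher (to the right) in 1343KO at day 0, with the held ones darker and the number tested in brackets; right, the median log2 change of all tested members, with the median of all tested genes dashed. The endoderm lists lie lowest, with 7 and 11 members lower; the actin and epithelial lists have 12 and 9 members higher; the ribosome lists have no call.

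Naive and formative pluripotency genes were called in both directions, and core ones were not called. Over all tested genes 3.06% were called. Of 12 core pluripotency genes 0 were called in limma. Of 20 naive ones 2 (Nanog and Dppa3) rose, 2 (Klf5 and Socs3) fell and 16 did not pass, none held. Nanog was at 142 and 153 FPKM against 206 and 210 (0.49 ± 0.08, adjusted p = 0.0126). Esrrb, a naive factor, was at 106 and 103 FPKM against 109 and 113 (adjusted p = 0.814), and Klf4 at 74.7 and 77.3 against 99.3 and 94.5 (adjusted p = 0.262). Of 17 formative epiblast genes, which mark the step after the naive state, 4 rose, 2 fell and 11 did not pass. The held ones were Pim2, a survival kinase (13.1 and 11.4 against 27.5 and 28.0; 1.12 ± 0.12), and Dnmt3b, a DNA methyltransferase (59.6 and 61.8 against 86.0 and 85.1; 0.49 ± 0.07, adjusted p = 0.00653). Dnmt3a, the other de novo methyltransferase, was called in the opposite direction (129 and 134 against 78.6 and 90.3; -0.64 ± 0.10, adjusted p = 0.00918), but that call ended without WT replicate 2 (0.0728) or 1343KO replicate 1 (0.0547). Of 10 measured genes of the 2-cell-like state, which ES cells enter briefly, 5 rose and 5 did not pass; with a pseudocount of 0.1 all 5 calls ended, and the Zscan4 copies among them are near-identical. Leaving out WT replicate 2 left 1 of these calls, and leaving out either 1343KO replicate left 2. Lncenc1, a noncoding RNA of naive ES cells, was at 37.0 and 39.3 against 94.8 and 94.5 (1.29 ± 0.10, adjusted p = 0.000272). It was the 1 called of 15 measured genes on a list of pluripotency noncoding RNAs, whose median was 0.20.

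Id2, Id3, Ifitm1 and Ifitm3 were higher, while most of the lists they belong to did not pass. Of all tested genes 1.66% were called higher and 1.41% lower. Id2 and Id3, inhibitors of basic helix-loop-helix factors that BMP signalling induces, were the 2 called of 17 measured BMP genes (median -0.02). Id2 (ENSMUSG00000020644, chr12:25093799-25097140) was at 11.9 and 11.4 FPKM against 32.0 and 25.3 (1.22 ± 0.11, adjusted p = 0.000536). Id3 was at 11 and 8.85 against 20.4 and 27.3 (1.18 ± 0.14, adjusted p = 0.00312). Of 22 measured interferon and class I genes 2 rose, 1 (B2m) fell and 19 did not pass. The 2 were Ifitm1 (65.5 and 61.7 against 166 and 134; 1.22 ± 0.11) and Ifitm3 (151 and 155 against 233 and 253; 0.66 ± 0.08), membrane proteins that are also expressed in ES and primordial germ cells. B2m, the class I light chain, had 18.5 and 19.3 against 13 and 13.8, and its call ended without any 1 day 0 library (0.0828 and 0.143 for WT, 0.104 and 0.0797 for 1343KO).

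The X-linked homeobox genes Rhox6 and Rhox9 were higher, where 1.66% of all tested genes were called higher and 1.41% lower. Rhox6 (chrX:37826910-37829857) was at 1.25 and 1.15 FPKM in WT and 5.52 and 5.19 in 1343KO (1.53 ± 0.14, adjusted p = 0.000606). Rhox9 (chrX:37899097-37901770) was at 1.98 and 0.845 against 6.26 and 6.96 (1.70 ± 0.22, adjusted p = 0.00368). They are known from placenta and germ cells, and are the only called members of 16 trophoblast markers, whose summed level was 68.2 and 66.5 against 65.9 and 71.6. Of 22 measured germ line genes 4 rose, these 2 among them, and 18 did not pass. Of 38 imprinted genes 4 rose and 1 (Nnat) fell; Peg3, a zinc finger gene expressed from the paternal copy (7.17 and 6.90 against 12.9 and 13.1; 0.80 ± 0.08), and Peg10, a retrotransposon-derived paternal gene (61.2 and 62.6 against 87.1 and 83.8; 0.46 ± 0.05), held. H19 (18.9 and 17.7 against 20.8 and 17.2) and Igf2 (46.0 and 51.6 against 60.3 and 45.6) overlapped between the lines.

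No measured gene of the ribosome lists, which snoRNAs serve, was called, where 3.06% of all tested genes were. In lists this short 0 calls lies near that share. At an adjusted p under 0.05 limma called 0 of 40 ribosome biogenesis factors (median 0.03), 0 of 76 cytosolic ribosomal proteins (median 0.01), 0 of 18 snoRNP proteins and, besides Snhg3, 0 of the other 13 measured snoRNA host genes. Messenger RNA levels say nothing of ribosomal RNA processing. Of 25 p53 targets 6 rose, 0 fell and 19 did not pass; 2 held, and leaving out either WT replicate or 1343KO replicate 1 brought the calls down to 3. Over all tested genes 1.66% were called higher. The held targets were Ccng1 and Perp. Ccng1 was at 59.8 and 58.6 FPKM against 88.5 and 80.8 (0.51 ± 0.07, adjusted p = 0.00547). Perp was at 15.9 and 13.4 against 36.9 and 29.5 (1.12 ± 0.14, adjusted p = 0.00313). Cdkn1a, the cell cycle inhibitor p21 and the best known p53 target, was at 13.9 and 11.9 FPKM against 16.7 and 14.2 (adjusted p = 0.39). Ldha, the lactate dehydrogenase subunit, was the other held member of the glycolysis and hypoxia list beside P4ha1, at 648 and 650 against 491 and 498 (-0.39 ± 0.05, adjusted p = 0.00355); 23 of its 25 measured members did not pass.

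Markers of other cell types were low in both lines. The share called over all tested genes was 3.06%. Summed levels were 78.3 and 83.3 FPKM in WT and 98.0 and 94.3 in 1343KO over 19 fibroblast markers, of which Fn1, fibronectin, alone was called (44.0 and 46.1 against 60.8 and 64.1; 0.46 ± 0.07, adjusted p = 0.00616). They were 35.5 and 38.7 against 43.2 and 44.0 over neural markers and 12.1 and 9.80 against 10.7 and 9.62 over mesoderm markers, with 0 called by limma in either list. Of the 16 mesoderm markers 12 were under 1 FPKM in all 4 libraries, and of the 19 fibroblast markers 7. The part of such cells in the actin and epithelial differences was not tested.

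Genes on in one line and off in the other were counted by level. With at least 5 FPKM in both libraries of a line and under 1 in both of the other, there were 9 such genes of 50638 in the table (0.0178%). The count was 48 without WT replicate 1, 38 without WT replicate 2, and 44 and 32 on leaving out 1343KO replicates 1 and 2. Leaving out a library drops a condition, so the count could only stay or rise. The named ones were Foxq1 and Dkk1, both on in WT only. The others were unnamed models: Gm17300 at the Snhg3 locus and 6 more, of which 5 are 204 to 435 bases long on the genome.

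The day 0 differences were then read at days 8 and 16 of embryoid body culture, in libraries that the day 0 contrast does not use, although the fit shares 1 estimate of spread. By day 8, 23.9% of tested genes were higher and 18.8% lower in 1343KO, and by day 16, 29.0% and 23.7%. Of the 218 genes lower at day 0, 125 (57.3%) were lower again at day 8 and 33 (15.1%) were higher; at day 16 these were 114 (52.3%) and 38 (17.4%). Of the 257 higher at day 0, 123 (47.9%) were higher again at day 8 and 43 (16.7%) lower, and at day 16, 113 (44.0%) and 73 (28.4%). The repeated genes were 4.29% of all genes lower at day 8 and 3.32% of all higher there, and 3.10% and 2.52% at day 16.

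Most of the endoderm genes were lower again later, and the actin list then had more lower than higher calls. Of the 43 held lower genes 31 were lower and 3 higher at day 8, and 32 and 5 at day 16; of the 55 held higher genes 28 were higher and 18 lower at day 8, and 21 and 23 at day 16. Dab2 was at 271 and 275 FPKM in WT and 26.5 and 26.2 in 1343KO at day 8 (-3.32), and at 185 and 169 against 11 and 14.9 at day 16 (-3.68). Serpinh1 was lower at both days too (-2.24 and -2.34). Foxq1, off in 1343KO ES cells, differed by 0.02 at day 8 (adjusted p = 0.95). Acta2, higher in 1343KO at day 0, was at 138 and 150 in WT and 39.7 and 38.4 in 1343KO at day 8 (-1.85), and the line difference itself had changed by -3.28 (limma interaction, adjusted p = 2.11e-06). Tagln was at 60.3 and 60.9 against 28.8 and 33.3 at day 16 (-0.95). Across the actin list 12 of 27 members were higher and 1 lower at day 0, 5 and 9 at day 8, and 2 and 17 at day 16; the endoderm factors had 7, 7 and 9 of 10 lower and none higher on the 3 days. Of the 7 lower at day 0, 5 were lower at day 8 and 6 at day 16; Foxq1 did not pass at day 8, and Sox17 did not at day 8 (adjusted p = 0.089) or day 16 (0.19). Other genes kept their direction: Gpa33 was higher by 3.58 and 3.13, Lncenc1 by 3.85 and 4.29 and Esrp1 by 1.27 and 1.29.

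**Figure D4:**
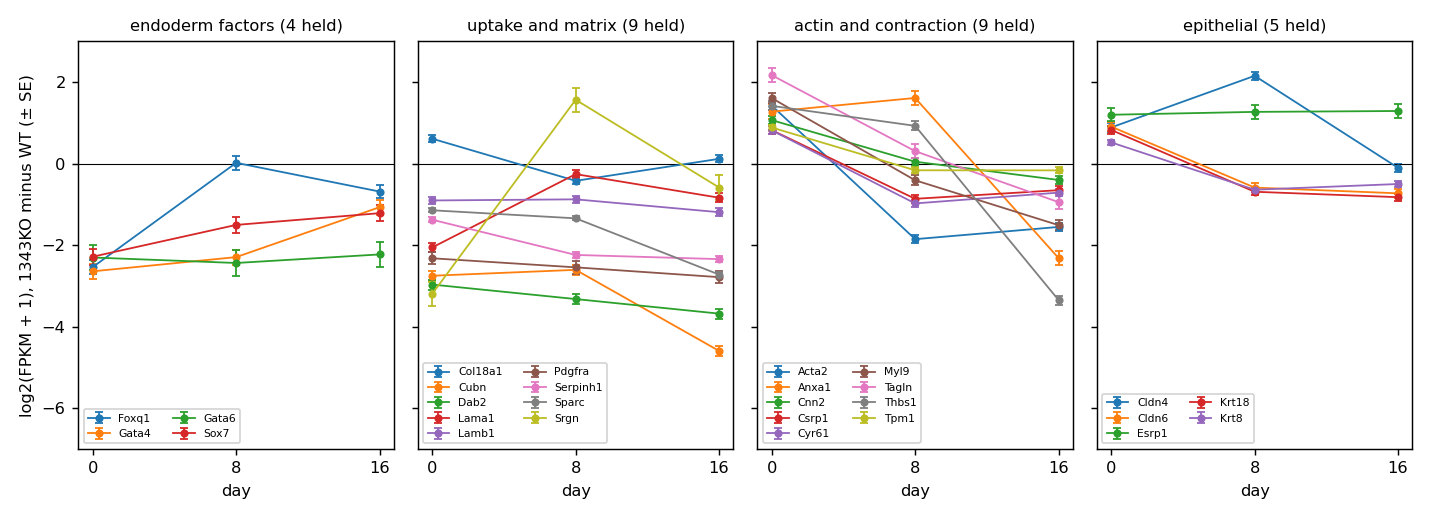
Difference between the lines (1343KO minus WT, log2(FPKM + 1), ± SE of the limma fit) at days 0, 8 and 16 for the members of 4 lists that held at day 0. Apart from Foxq1 at day 8 the endoderm factors lie below 0 on all days, as do the uptake and matrix genes other than Srgn and Col18a1. All 9 actin genes and both keratins start above 0 and lie below it at day 16.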

How the data were processed

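RNA was measured in 12 mouse libraries, 2 for each line and day, grouped by their titles, genotype and time. The authors deposited FPKM, one value per gene and library. Cufflinks 2.1.1 and GRCm38 (mm10) are named in the submitters' processing notes; an aligner and annotation were not given in the sources used here. GENCODE M21 held 99.9% of the gene IDs, with equal coordinates for 98.7%. A 0 can be a failed estimate: of 6620 genes with a median of 10 FPKM or more, 17 had one. Depth, some 4814000 to 7921000 fragments per library, was estimated from low values that are whole multiples of 1 fragment (within 5%); tests on counts were not run.

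The 16289 genes that reached 1 FPKM in 2 or more libraries were fitted on all chromosomes as log2(FPKM + 1), each of 6 groups having its own mean (limma 3.58.1 in R 4.3.3, trended variance, 6 residual degrees of freedom). P-values are two-sided, Benjamini-Hochberg adjusted over all these genes. Chromosomes 8 and Y stayed in the fit and are not counted here. An exact permutation test of 2 against 2 libraries has a smallest p of 0.333, so calls rest on spread pooled over groups.

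Genes named are those at the Snhg3 locus, the 20 largest held changes in each direction (unnamed models aside) and named genes on in one line only. Held members and defining markers of 35 lists (806 entries) are named too. The 20 largest were taken among genes whose day 0 libraries did not overlap between the lines. List members that did not hold and are not defining markers were picked after their values were seen. The comparison and lists were chosen with earlier results of these data known. Replicate numbers were checked as pairs: day 0 deviations of same-numbered libraries correlated at 0.0296. Each result was recomputed with a pseudocount of 0.1, without the filter, with a mean of 5 FPKM or more, under median-of-ratios or TPM scaling, with a replicate block, with robust variance, with a minimum log2 change of 1, on the day 0 libraries alone, without chromosomes 8 and Y, and with each library left out. Scripts were tested on simulated data. Python 3.11.15 with pandas 2.3.3, numpy 2.4.6 and, for figures, matplotlib 3.10.9 was used.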

Additional observations from a re-analysis of the deposited data

Results flagged for a closer look

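Of 68 named genes that held at day 0, 59 had a line difference at day 8 or 16 that itself differed from the one at day 0 (limma interaction, adjusted p under 0.05). Over all 15500 tested genes the share was 46.6%, and the 68 were named for held day 0 differences, so nothing is read from their count. In 10 of them the difference was at least 2-fold in opposite directions. The values here are the later line difference minus that at day 0, on the log2(FPKM + 1) scale.

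Actin and matrix genes that were higher in 1343KO ES cells made up 5 of the 10. Acta2, smooth muscle actin, moved by -3.28 at day 8 (interaction adjusted p = 2.11e-06) and -2.98 at day 16. Myl9, myosin light chain, moved by -3.12 at day 16, Cald1, caldesmon, by -2.44, Anxa1, annexin A1, by -3.60, and Thbs1, thrombospondin 1, by -4.77 (adjusted p = 1.69e-07). The inhibitors Id2 (-3.40 at day 8 and -3.07 at day 16) and Id3 (-2.82 at day 8) and the membrane protein Perp (-2.43 at day 16) moved the same way.

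The opposite pattern, lower in 1343KO at day 0 and higher at day 8, was seen for Srgn (4.77, adjusted p = 6.75e-05) and Ndufa4l2 (3.51, adjusted p = 0.000201). Within 1343KO, Srgn was at 3.64 and 3.59 FPKM at day 0 and 24.3 and 24 at day 8; in WT it was at 41.6 and 41.1, then 11 and 5.01.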

How the results depend on the processing

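The 475 genes called at day 0 lay between 407 and 486 with 0.1 as the pseudocount, without the filter, with 5 FPKM as the lowest mean, under either scaling, with robust variance or on leaving out chromosomes 8 and Y. Demanding a log2 change of 1 left 14 (4 higher, 10 lower), and of the genes called again at day 8 and day 16 it left 8 and 5. The day 0 libraries alone gave 0, higher and lower alike. Leaving out 1 library gave 153 to 398 genes, 84 to 216 higher and 69 to 187 lower; 84 to 223 were called the same way at day 8 and 75 to 193 at day 16, beside 248 and 227. Genes on in one line only numbered 28 at 2 FPKM against 0.5, and 32 to 48 with a library left out, beside 9. With a library left out that count could not fall, because a condition is dropped. Replicate numbers did not pair the libraries; with the replicate block 372 genes passed (203 higher, 169 lower). For single genes named, 1672 of the recomputed values kept their side of the threshold, 184 lost it and 0 reversed. Many of these genes were named because they held, and held genes keep their call by definition in the settings that define the term. Part of the 1672 was therefore fixed in advance, and nothing is read from that count. The effect of depth on low genes was not tested.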
